A study of Caenorhabditis elegans with 6 samples.

Results

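Metallothioneins, ferritins and the cadmium-responsive genes are the part of the worm transcriptome that binds, stores or moves metal ions, mostly in the gut. The 8 genes mtl-1, mtl-2, ftn-1, ftn-2, cdr-1, cdr-2, cdr-4 and ttm-1 were taken by name from tables of 15796 loci per library. Each of the 8 had 1 locus, labelled alike in all 7 tables, and all 8 passed the filter of a mean of at least 1 FPKM (fragments per kilobase, scaled to the mapped fragments of a library). The libraries came from whole adult Caenorhabditis elegans of the wild-type Bristol N2 strain kept at 20 °C and fed double-stranded RNA from bacteria on plates with 6 mM IPTG. Feeding began with L4 larvae, and adults of the following generation were harvested. The control group of 3 biological replicates received tag-208 RNAi (the tables list the gene as sorb-1), and the other group of 3 received prx-5 RNAi. Both groups therefore had a targeted gene, and a difference between them can come from either.

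Metallothioneins are short, cysteine-rich proteins that bind zinc, copper and cadmium. Ferritins form hollow shells in which iron is kept in a safe mineral form. The cdr genes encode membrane proteins related to glutathione transferases, and the founding gene cdr-1 is known for its induction by cadmium in intestinal cells. In the worm the intestine takes up dietary metals and stores them in acidic granules. It turns on some of these genes when metal is in excess, with the gut factor ELT-2 as an activator they share.

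RNA of prx-5, the gene for the receptor that carries most enzymes into the peroxisome, stood higher where the label reads prx-5 RNAi, with 14.9, 21.3 and 23.5 FPKM against 4.48, 4.73 and 3.50 FPKM in the control libraries. That is the opposite direction to a loss of its RNA, so directions below are those of the labels, and the libraries are called prx-5-labelled. RNA of sorb-1, the target in the control group, was 11.5, 12.9 and 6.96 FPKM there and 13.6, 14.8 and 25.6 FPKM in the prx-5-labelled libraries (limma adjusted p = 0.232). With the depth of control replicate 1 set to 1, prx-5-labelled replicate 1 was the shallowest library (0.767) and prx-5-labelled replicate 3 the deepest (1.258). Of 13347 loci tested by limma with Benjamini-Hochberg adjustment, 1160 passed an adjusted p of 0.05, of which 1000 were higher and 160 lower with prx-5 RNAi by label. Higher loci made up 86.2% of these calls, but 73.1% with the authors' constants between libraries, 73.4% with median-ratio scaling and 69.1% with quantile normalization. Those scalings moved the log2 fold changes of all loci by medians of -0.13, -0.11 and -0.25. Markers of the intestine were higher in the prx-5-labelled libraries in 11 of 11 tested genes (12 were listed), and their log2 fold changes had a median of 1.62. Their summed level lay between 804 and 1240.5 FPKM in the controls, against 2651 to 5737 FPKM in the other group, and none of the 11 was at 0. Most of that sum was asp-1, with 478 to 778 FPKM in the controls and 1921 to 4377 FPKM in the other group. Fewer of the 11 markers passed in other fits: 6 with the authors' constants, 0 without control replicate 3, 1 without prx-5-labelled replicate 2 or 3 and 2 without control replicate 1. Over all loci those fits called 714, 78, 155, 137 and 306, in that order. In RNA from whole worms, more or fewer cells of a type and more or less RNA per cell cannot be told apart.

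Of the 8 genes, 5 rose in the prx-5-labelled libraries, and 0 fell by limma, with 0 lower at an unadjusted p under 0.05 and 0 called lower in the authors' deposited table. One of the 5, cdr-1, passed the filter on low values through its prx-5-labelled level alone, so its place in the count gives no support. The background for these counts is that 8.69% of all tested loci changed, 7.49% higher and 1.2% lower. The 5 were ftn-2, cdr-1, cdr-2, cdr-4 and ttm-1, and they were also the 5 whose groups did not overlap, against 26.9% of all tested loci in either direction and 21.1% higher. The median log2 fold change of the 8 was 1.09, against 0.04 over all tested loci. The authors' deposited table also called 5 of the 8, all higher, against 14.4% of the tested loci in either direction and 9.52% higher, and 4 of those were shared with limma. Leaving out 1 library gave 1, 3 and 0 calls among the 8 without control replicates 1, 2 and 3, and 4, 1 and 0 without prx-5-labelled replicates 1, 2 and 3. Over all loci the same fits called 306, 866 and 78, and 1848, 155 and 137, against 1160 with all libraries. The authors' deposited table called mtl-2 and left out ttm-1, while limma called ttm-1 and left out mtl-2.

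**Figure D1:**
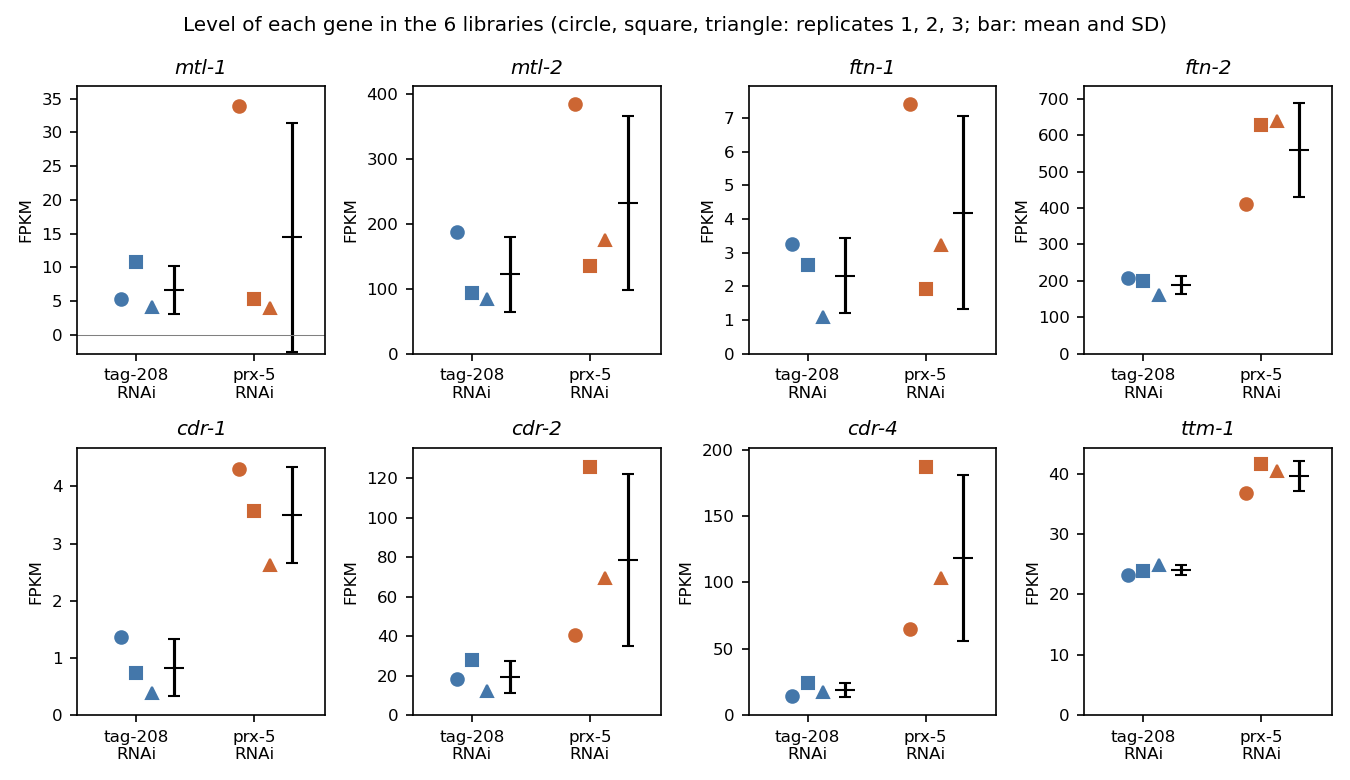
FPKM of the 8 genes (linear axis, 1 panel per gene) in the 3 tag-208 RNAi libraries (blue) and the 3 prx-5-labelled libraries (orange), with circles, squares and triangles for replicates 1, 2 and 3 and a black bar for the mean and SD. The groups are apart for ftn-2, cdr-1, cdr-2, cdr-4 and ttm-1, while mtl-1, mtl-2 and ftn-1 have their highest value in prx-5-labelled replicate 1 and overlap otherwise.

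The metallothionein mtl-1, which is known for basal expression in the pharynx and for induction in the gut by cadmium, had 5.22, 10.7 and 4.03 FPKM in the control libraries. In the prx-5-labelled libraries it had 34.0, 5.34 and 3.92 FPKM. A single library, prx-5-labelled replicate 1, stood above all the others, and the remaining 2 of that group lay inside or just under the control range. The group means were 6.66 ± 3.58 and 14.4 ± 16.97 FPKM (SD, n = 3), and the difference of 0.52 ± 0.74 (SE) on the log2 scale was not called (limma adjusted p = 0.715). Without prx-5-labelled replicate 1 the log2 fold change was -0.36 (limma adjusted p = 0.551), the opposite sign. The locus of mtl-1 (WBGene00003473, chromosome V, 6691331 to 6691837, minus strand) took in 94.7% of the annotated gene, and here as below the positions match the WBcel235 annotation.

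The FPKM of mtl-1 were whole multiples of 1 value once relative depth was taken out, and the smallest whole numbers of fragments that gave them were 37, 84 and 24 in the control libraries and 185, 39 and 35 in the prx-5-labelled ones. The 185 fragments of prx-5-labelled replicate 1 had an exact Poisson 95% interval from 159 to 214, and the 39 and 35 of the other two had intervals from 27.7 to 53.3 and from 24.4 to 48.7. The spread of mtl-1 among the prx-5-labelled libraries was thus larger than counting error, in the library of lowest depth. These intervals cover counting error only. Fragment numbers here and below are such smallest whole numbers, and the true numbers may be whole multiples of them.

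The second metallothionein, mtl-2, which is known as the more gut-restricted and more strongly induced of the pair, had 188, 93.9 and 83.8 FPKM in the control libraries. Its prx-5-labelled values were 384, 134 and 175 FPKM. The highest value was again in prx-5-labelled replicate 1, and control replicate 1 lay above the other two prx-5-labelled libraries, so the groups overlapped. The means were 122 ± 57.3 and 231 ± 134 FPKM (SD, n = 3), with a log2 fold change of 0.86 ± 0.45 (SE, limma adjusted p = 0.321). With 1 library left out it lay between 0.42, without prx-5-labelled replicate 1, and 1.22, without control replicate 1. The authors' deposited table gave 0.77 on the log2 scale and a q of 0.0440. With the replicate number as a block, the limma adjusted p was 0.0482. The locus of mtl-2 (WBGene00003474, chromosome V, 14018267 to 14018634, minus strand) covered 90.3% of the gene and held between 301 and 1260 fragments per library.

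The pair kept its order in every library, with mtl-2 above mtl-1 on the FPKM scale, which is per length. The log2 ratio of mtl-1 to mtl-2, taken here and below on FPKM + 1, was -4.01 ± 0.96 in the control libraries and -4.34 ± 0.85 under prx-5 RNAi by label (SD, n = 3). It differed by -0.34 between the groups, less than the spread between replicates (exact permutation test, two-sided, p = 0.7, where 3 against 3 allows no p under 0.1). The 2 genes did not have the same order of libraries, since mtl-1 was second highest in control replicate 2 and mtl-2 in control replicate 1.

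Of the ferritins, ftn-2 rose, while ftn-1 did not pass the test. The gene ftn-2, known as the broadly and constitutively expressed ferritin, rose from 207, 200.2 and 160.2 FPKM in the control libraries to 411, 628 and 639 FPKM in the prx-5-labelled ones. All 3 prx-5-labelled values lay above all 3 control values, by the means 2.96-fold (189 ± 25.2 to 559 ± 128 FPKM, SD, n = 3). The log2 fold change was 1.54 ± 0.23 (SE, limma adjusted p = 0.0143). The call was lost in fits without control replicate 3 (limma adjusted p = 0.0702), prx-5-labelled replicate 2 (0.0647) or prx-5-labelled replicate 3 (0.0622), with log2 fold changes from 1.43 to 1.75 over the 6 fits that each left out 1 library. The locus of ftn-2 (WBGene00001501, chromosome I, 3680171 to 3681047) covered 100% of the gene, which lies on the minus strand.

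The ferritin gene ftn-1, known for expression in the intestine and for induction by iron, had 3.25, 2.62 and 1.07 FPKM in the control libraries. The prx-5-labelled libraries had 7.41, 1.93 and 3.23 FPKM, so again prx-5-labelled replicate 1 was the high library and the other two lay within the control range. The log2 fold change was 0.57 ± 0.45 (SE, limma adjusted p = 0.511). With 1 library left out it lay between 0.15, without prx-5-labelled replicate 1, and 0.91, without prx-5-labelled replicate 2, and it was 0.26 without control replicate 3. The fragments behind these values numbered 36, 32 and 10 in the control libraries and 63, 22 and 45 in the prx-5-labelled ones. The Poisson interval of the 63 fragments, from 48.4 to 80.6, and that of the 22, from 13.8 to 33.3, did not meet although the first library had the lower depth. The locus of ftn-1 (WBGene00001500, chromosome V, 7545978 to 7547001, minus strand) covered 48.0% of the annotated gene and 80.5% of its exonic bases, and it ran past the annotated 3′ end.

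On the FPKM scale ftn-2 lay above ftn-1 in all 6 libraries. The log2 ratio of ftn-1 to ftn-2 was -5.90 ± 0.34 in the control libraries and -6.87 ± 1.11 under prx-5 RNAi by label (SD, n = 3). The difference of -0.97 was not distinguishable at this sample size (exact permutation test, two-sided, p = 0.3, adjusted p = 0.4 over the 4 ratios tested). It was -1.6 without prx-5-labelled replicate 1 and -0.53 without prx-5-labelled replicate 2. Prx-5-labelled replicate 1 had a ratio of -5.62, close to the -5.61 of control replicate 1, while the other two prx-5-labelled libraries had -7.75 and -7.24.

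Among the cadmium-responsive genes, cdr-4 showed the largest rise of the 8. It had 14.7, 24.4 and 17.5 FPKM in the control libraries and 65.1, 187 and 103 FPKM in the prx-5-labelled libraries. The groups were well apart, and prx-5-labelled replicate 2 was the highest library. By the means it was 6.29-fold higher (18.8 ± 4.98 to 118 ± 62.4 FPKM, SD, n = 3), with a log2 fold change of 2.49 ± 0.38 (SE, limma adjusted p = 0.0156). The call was lost without control replicate 1 (limma adjusted p = 0.0537), control replicate 3 (0.0762) or prx-5-labelled replicate 3 (0.0613), with log2 fold changes from 2.09 to 2.85 in the fits that left out 1 library. The cdr-4 locus (WBGene00010470, chromosome V, 12407359 to 12408890, minus strand) covered 100% of the gene and held between 582 and 7646 fragments.

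The paralog cdr-2 followed the same order of prx-5-labelled libraries, as did the intestine marker mean. Its control values were 18.0, 27.9 and 12.1 FPKM, and its prx-5-labelled values were 40.4, 126 and 69.3 FPKM. The lowest prx-5-labelled value lay above the highest control value. The log2 fold change was 1.89 ± 0.45 (SE, limma adjusted p = 0.0453), and by the means cdr-2 was 4.06-fold higher (19.3 ± 7.94 to 78.5 ± 43.5 FPKM, SD, n = 3). The call lay close to the threshold. It was lost without control replicate 1 (limma adjusted p = 0.123), control replicate 3 (0.154), prx-5-labelled replicate 2 (0.125) or prx-5-labelled replicate 3 (0.12996), and with the authors' constants (0.0806). The locus (WBGene00008296, chromosome V, 12414619 to 12415710, minus strand) covered 100% of the gene. Its smallest whole numbers of fragments were 244, 416 and 138 in the control libraries and 420, 1756 and 1181 in the prx-5-labelled ones.

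The founding gene cdr-1 had the lowest mean of the 8 in both groups, with a range that overlapped that of ftn-1 in each, at 1.36, 0.740 and 0.378 FPKM in the control libraries and 4.31, 3.56 and 2.63 FPKM in the prx-5-labelled ones. These values rested on 30, 18 and 7 fragments against 73, 81 and 73 fragments. The groups did not overlap, and the mean was 4.24-fold higher in the prx-5-labelled libraries. On the log2(FPKM + 1) scale, which understates the change of so low a gene, the rise was 1.32 ± 0.29 (SE, limma adjusted p = 0.0367). The gene passed the filter on low values through its prx-5-labelled level, since its control mean was 0.826 FPKM. None of the 6 fits that left out 1 library kept the call: the adjusted p was 0.0601, 0.0720 and 0.125 without control replicates 1, 2 and 3, and 0.0598, 0.136 and 0.0888 without prx-5-labelled replicates 1, 2 and 3. With the authors' constants the adjusted p of cdr-1 was 0.0563. The locus (WBGene00000412, chromosome V, 15921543 to 15922820, plus strand) covered 84.5% of the gene.

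**Figure D2:**
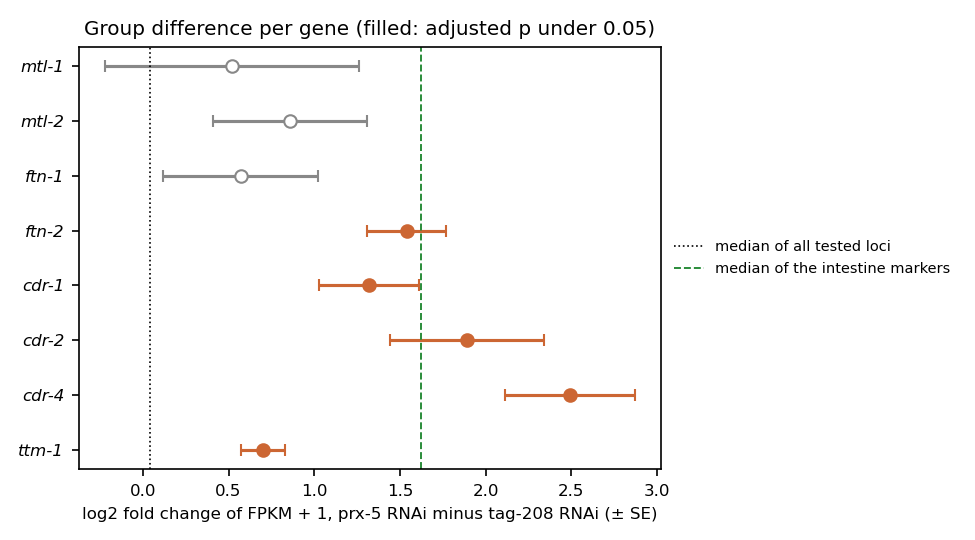
Log2 fold change of FPKM + 1, prx-5-labelled minus tag-208 RNAi libraries, with its SE, for the 8 genes; filled points passed an adjusted p under 0.05, the dotted line is the median of all tested loci (0.04) and the dashed line the median of the intestine markers (1.62). The values run from 0.52 for mtl-1 to 2.49 for cdr-4, and ttm-1 has the smallest error.

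The genes cdr-4 and cdr-2 belong to an array of 5 loci, taken by name, on the minus strand of chromosome V within 8352 bp. Between cdr-4 and cdr-2, in order from cdr-4, lie hrg-2, cdr-7 and cdr-6. Loci outside this span were not examined, so where the array ends is not known. The 2 neighbours named cdr did not pass the test: cdr-6 had 61.4 ± 3.74 and 63.7 ± 3.90 FPKM (SD, n = 3, log2 fold change 0.05 ± 0.13, limma adjusted p = 0.853), and cdr-7 had 7.55 ± 1.34 and 8.13 ± 1.49 FPKM (0.09 ± 0.21, limma adjusted p = 0.823). The locus named hrg-2, a heme-responsive gene, rose from 3.17, 10.5 and 7.95 FPKM to 28.9, 142 and 90.7 FPKM. Its order of prx-5-labelled libraries was that of its neighbour cdr-4. The intestine marker mean had this order too, so it is not particular to the array. The log2 fold change of hrg-2 was 3.28 ± 0.62 (SE, limma adjusted p = 0.0254), a call lost without control replicates 1 and 3 (0.0721 and 0.0949) and prx-5-labelled replicates 2 and 3 (0.0856 and 0.0910). The log2 ratio of cdr-2 to cdr-6 went from -1.69 ± 0.48 to 0.15 ± 0.85, and that of cdr-4 to cdr-7 from 1.2 ± 0.13 to 3.59 ± 0.58 (SD, n = 3). The groups were apart in both ratios, each with the smallest p that 3 against 3 allows (exact permutation test, two-sided, p = 0.1, adjusted p = 0.2 over the 4 ratios tested). These ratios were chosen after the values had been seen. The name cdr-5 matched no locus used here, and whether hrg-2 is itself a member of the cdr family was not settled from the files, so the array is not divided here into cdr and other genes. The genes of a family can share reads, and how the counting split such reads is not given in the sources used here.

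**Figure D3:**
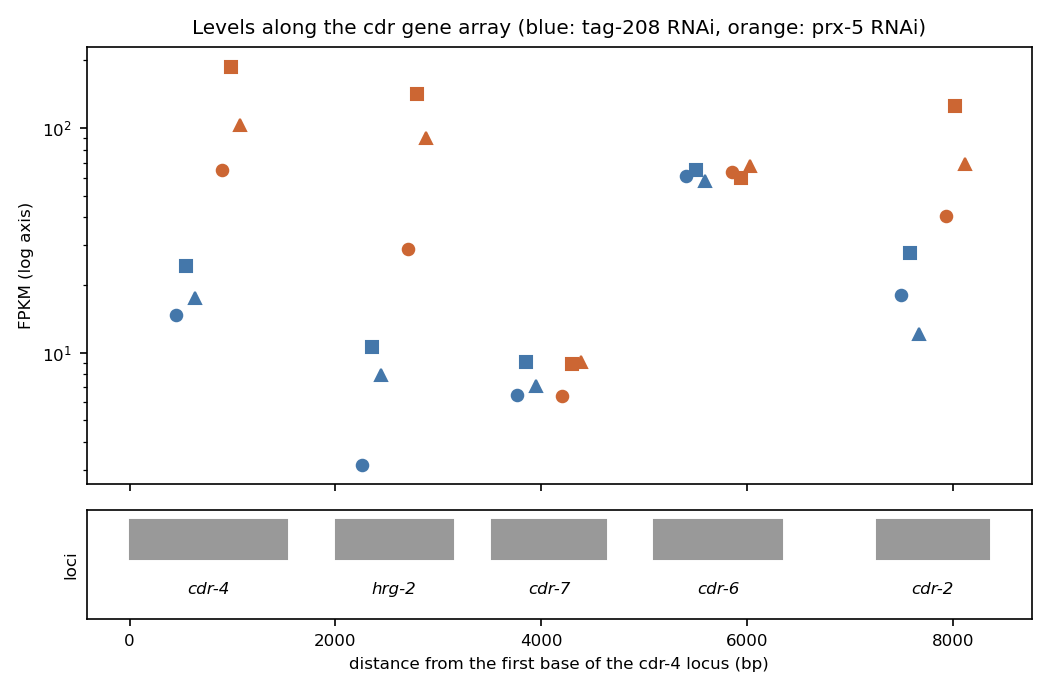
FPKM on a log axis of the 5 loci of the array, placed to scale by distance in bp from the first base of the cdr-4 locus, with tag-208 RNAi libraries in blue and prx-5-labelled libraries in orange (circle, square, triangle: replicates 1, 2, 3). The prx-5-labelled points lie above the control points at cdr-4, hrg-2 and cdr-2 and overlap with them at cdr-7 and cdr-6.

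The zinc transporter gene ttm-1, whose product is known to move zinc out of cells and whose name comes from its induction by pore-forming toxin through p38 MAP kinase, had the most even values of the 8. Its control libraries had 23.2, 23.8 and 24.9 FPKM, and its prx-5-labelled libraries had 36.8, 41.5 and 40.4 FPKM. The groups were apart with a wide gap for their spread, although the rise was small, 1.65-fold by the means (24.0 ± 0.847 to 39.6 ± 2.49 FPKM, SD, n = 3). The log2 fold change was 0.70 ± 0.13 (SE, limma adjusted p = 0.0273). The authors' deposited table gave 0.59 on the log2 scale and a q of 0.0687, which was no call there. The call was kept without prx-5-labelled replicate 1 and lost without control replicates 1, 2 and 3 (limma adjusted p = 0.107, 0.0594 and 0.0957) and prx-5-labelled replicates 2 and 3 (0.131 and 0.109). With the replicate block it was lost too (0.0669), as it was with the authors' constants (0.0575). The locus (WBGene00012712, chromosome III, 12952966 to 12966967, minus strand) covered 99.8% of a gene with 3 annotated transcripts, so the level sums over transcripts.

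Ordered by level in the control libraries, ftn-2 came first at 189 FPKM, then mtl-2 (122), ttm-1 (24.0), cdr-2 (19.3), cdr-4 (18.8), mtl-1 (6.66), ftn-1 (2.31) and cdr-1 (0.826). Neighbours whose ranges overlapped in that order were ftn-2 with mtl-2, ttm-1 with cdr-2, cdr-2 with cdr-4, and ftn-1 with cdr-1. In the prx-5-labelled libraries ttm-1 stood below cdr-4 (118 FPKM) and cdr-2 (78.5 FPKM), though its range still overlapped with that of cdr-2, and ftn-2 (559 FPKM) no longer overlapped with mtl-2 (231 FPKM).

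Within the prx-5-labelled group the 8 genes did not share 1 order of libraries. Replicate 1 was the highest of the 3 for mtl-1, mtl-2, ftn-1 and cdr-1, and the lowest for ftn-2, cdr-2, cdr-4 and ttm-1. Its level was 7.34 times the mean of the other two for mtl-1, 2.87 times for ftn-1 and 2.48 times for mtl-2, but 0.414 times for cdr-2 and 0.449 times for cdr-4. The intestine marker mean was 1.16, 2.07 and 1.78 above its control mean on the log2 scale in prx-5-labelled replicates 1, 2 and 3. For ftn-2 the deviations were 1.13, 1.73 and 1.76, for cdr-2 1.1, 2.72 and 1.86, and for mtl-1 2.29, -0.18 and -0.54. With the intestine marker mean of each library subtracted from all loci, the log2 difference was -0.13 for ftn-2 (limma adjusted p = 0.791), 0.22 for cdr-2 (0.603), -0.35 for cdr-1 (0.438) and 0.82 for cdr-4 (0.0713). For ttm-1 it was -0.97 (0.0325), lower rather than higher, since ttm-1 rose less than the markers. After that subtraction 0 of the 8 genes were called higher, against 118 of the 13347 tested loci, and the median of all loci lay at -1.63.

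**Figure D4:**
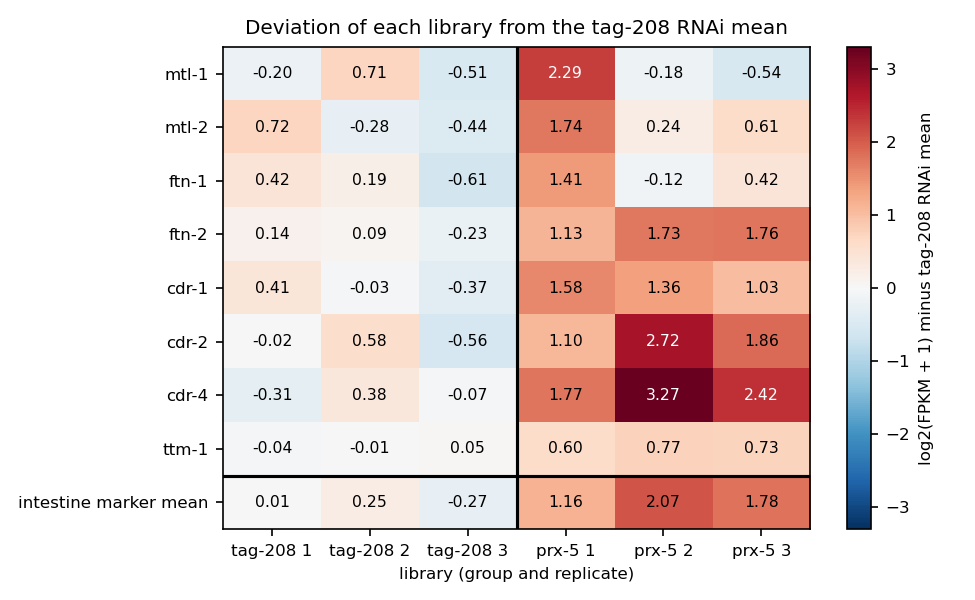
Deviation of each library from the tag-208 RNAi mean in log2(FPKM + 1), for the 8 genes and the mean of 11 intestine markers (rows) in the 6 libraries (columns), printed in each cell and coloured from blue (lower) to red (higher). The first 3 rows have their highest value in prx-5-labelled replicate 1, whereas cdr-2, cdr-4 and the marker row peak in replicate 2.

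The genes most like each of the 8 over the 6 libraries were named by Pearson's r of log2(FPKM + 1) among 6315 other named loci, as a description over 6 points that share the same libraries and groups. For mtl-1 the closest were the F-box genes fbxb-81 (r = 0.942), fbxb-13 (0.937) and fbxc-24 (0.932), and 0 loci reached an r over 0.95. These F-box genes were low, at 0.911 to 1.94, 1.13 to 2.66 and 0.598 to 2.37 FPKM. For mtl-2 the closest were srd-70 (0.985, at 0.319 to 2.44 FPKM), the lipase gene lipl-2 (0.984) and ugt-31 (0.977), and lipl-2 had 32.7 FPKM in prx-5-labelled replicate 1 against 3.16 and 3.18 in the other two. For ftn-1 they were fbxc-29 (0.994), fbxb-12 (0.990, at 0 FPKM in control replicate 3) and epg-2 (0.983). More loci had a high r with the genes whose groups were apart: 515 had an r over 0.95 with ftn-2, 426 with cdr-4, 317 with cdr-2 and 315 with ttm-1, against 10 with mtl-2 and 18 with ftn-1. Loci whose groups are apart in the same direction can reach a high r through the group difference alone. The groups were apart at 26.9% of all tested loci, so these numbers restate that difference. The closest were xtr-1, tre-4 and mpst-3 for ftn-2 (0.999, 0.999 and 0.998), nep-8, arc-1 and cgt-1 for cdr-4 (0.999, 0.998 and 0.997) and ugt-19, nhr-208 and twk-46 for cdr-2 (0.998, 0.993 and 0.993). For ttm-1 they were the non-coding tts-1 (0.999), dhs-9 (0.996) and the peroxin prx-13 (0.995), and for cdr-1, where 92 loci exceeded 0.95, egl-10 (0.996), fbxa-99 (0.995) and fbxa-70 (0.995). In every control library xtr-1 (0.265 to 0.758 FPKM), fbxa-99 (0.402 to 0.844 FPKM) and fbxa-70 (0.549 to 0.883 FPKM) lay under 1 FPKM. The control means of nhr-208, cgt-1 and srd-70 were under 1 FPKM too. All of these loci passed the filter on low values through their prx-5-labelled level alone, so their r gives no support. In at least 1 control library nep-8 and fbxc-29 also lay under 1 FPKM.

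The other 66 genes came from 8 lists, of which 6 hold genes of metal and heme handling, 1 holds regulators and 1 holds toxin-regulated and MAP kinase genes. Of the 66 genes, 57 were tested, of which 12 rose and 0 fell by limma (1 lower at an unadjusted p under 0.05, zipt-13, which the authors' deposited table called), and their log2 fold changes had a median of 0.25. The share of all tested loci that rose was 7.49%. Of the 12, 4 were in the regulator and MAP kinase lists (elt-2, which is also an intestine marker, ttm-2, ttm-5 and kgb-1). The heme list held 5 of these rises among 8 tested genes, with a median of 1.81. The intestine marker levels given above moved in the same libraries. With the marker mean subtracted, which moved all loci down, 3 heme genes were called higher and 1 lower, and the higher and lower calls were 0 and 16 for zinc transport, 0 and 4 for iron, 0 and 8 for the regulators and 0 and 4 for the toxin and MAP kinase list. Of the 13347 tested loci that fit called 11327, with 118 of them higher, so most loci were called lower there.

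As background, the worm makes no heme of its own and must move it from the gut to other tissues. The secreted heme chaperone gene hrg-3 rose from 49.3, 81.8 and 62.8 FPKM to 249.8, 746 and 636 FPKM, a log2 fold change of 2.94 ± 0.42 (SE, limma adjusted p = 0.0139). The gene hrg-7 (listed as asp-10), which encodes a secreted aspartic protease-like protein of heme signalling between tissues, rose by 2.79 ± 0.46, the heme exporter gene mrp-5 by 1.95 ± 0.25 and the lysosomal heme importer gene hrg-1 by 1.66 ± 0.27, beside hrg-2. The gut heme importer gene hrg-4 had 41.3 ± 6.05 and 88.4 ± 30.9 FPKM (SD, n = 3) and did not pass (limma adjusted p = 0.0813), nor did hrg-9 (0.0586), although the authors' deposited table called both. With the intestine marker mean subtracted, hrg-2, hrg-3 and hrg-7 were still higher, by 1.61, 1.27 and 1.13 (limma adjusted p = 0.00571, 0.0178 and 0.0416), while hrg-1 stood at -0.01 (0.983) and mrp-5 at 0.28 (0.494). Of the 8 genes in this list, 3 were called without control replicate 1, 0 without control replicate 3 and 1 without prx-5-labelled replicate 2 or replicate 3, while 7 were called without prx-5-labelled replicate 1. Over all loci the same fits called 306, 78, 155, 137 and 1848, in that order.

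**Figure D5:**
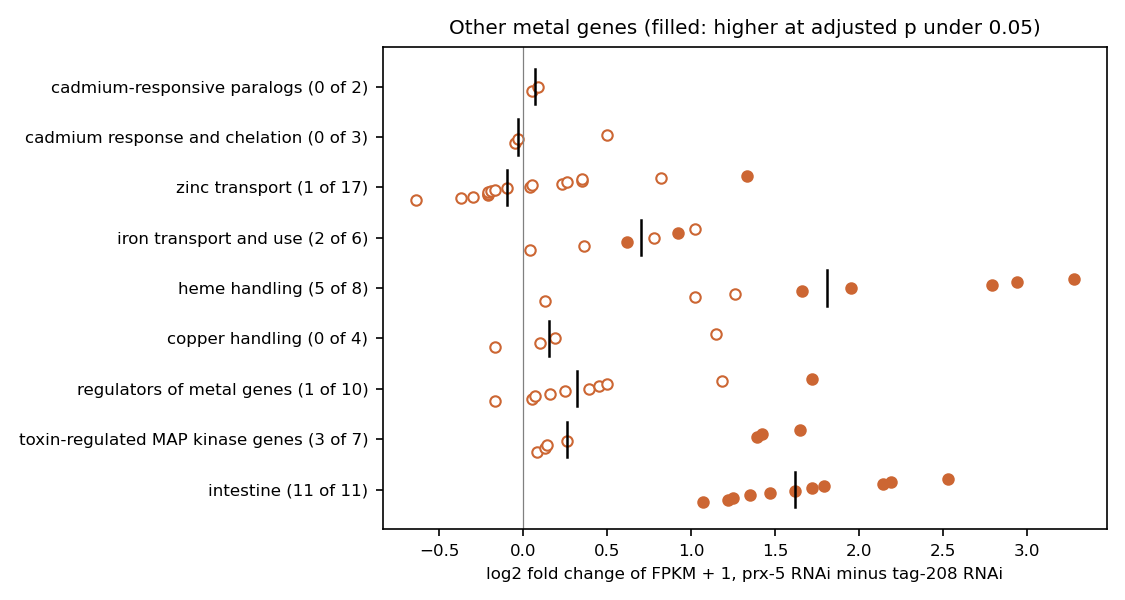
Log2 fold change of FPKM + 1, prx-5-labelled minus tag-208 RNAi libraries, of each tested gene (points) in 6 lists of metal and heme genes, the regulators, the toxin and MAP kinase genes and the intestine markers, with the list median as a black line; filled points rose at an adjusted p under 0.05, and the number of them stands beside each list. The heme list has 5 of 8 genes called and the zinc transport list 1 of 17.

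In the zinc transport list 1 of 17 tested genes was higher, and the median log2 fold change was -0.10. The ZIP family gene zipt-2.1 rose from 10.7 ± 1.34 to 28.9 ± 7.41 FPKM (SD, n = 3, log2 fold change 1.33 ± 0.23, limma adjusted p = 0.0198). The gene zipt-13 had 23.9 ± 2.35 and 15.01 ± 1.56 FPKM, groups that did not overlap, but lay just outside the threshold (limma adjusted p = 0.0544). The call of zipt-2.1 was lost without control replicate 1 or 3 (limma adjusted p = 0.0601 and 0.0888) or prx-5-labelled replicate 2 or 3 (0.0813 and 0.0797).

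Of 6 tested genes of iron transport and use, 2 rose. They were smf-1, which encodes a divalent metal importer of the DMT1 kind (5.83 ± 0.104 to 12.1 ± 2.07 FPKM, SD, n = 3, log2 fold change 0.92 ± 0.18, limma adjusted p = 0.0287), and aco-1, the cytosolic aconitase gene whose mammalian relative is an iron sensor (35.3 ± 3.03 to 54.9 ± 4.77 FPKM, 0.62 ± 0.14, limma adjusted p = 0.0432). The ferroportin-like gene fpn-1.1 had 8.82 ± 3.23 and 18.5 ± 4.89 FPKM and did not pass (limma adjusted p = 0.0911). Of the 2 calls, 0 were left with the authors' constants, median-ratio scaling or quantile normalization, and 0 were left without any 1 library other than prx-5-labelled replicate 1. Calls over all loci fell to 714, 698 and 771 with those scalings, and they also fell without each of those libraries.

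None of 3 tested genes of cadmium response and chelation passed (limma, with 1 of them at an unadjusted p under 0.05), and none of 4 copper genes did (again 1 at an unadjusted p under 0.05). The authors' deposited table called 0 of these 3 and 1 of these 4, chca-1. The phytochelatin synthase gene pcs-1 had 20.1 ± 3.05 and 28.6 ± 2.79 FPKM (SD, n = 3, limma adjusted p = 0.134), and hmt-1, which encodes a transporter linked to phytochelatins, had 34.5 ± 4.02 and 33.4 ± 4.98 FPKM (0.897). Among the copper genes the importer gene chca-1 had 76.1 ± 15.9 and 177 ± 65.6 FPKM (0.0691), and the chaperone gene cuc-1 had 155 ± 21.3 and 177 ± 17.5 FPKM (0.543).

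Of 10 tested regulators, 1 rose, elt-2 (4.67 ± 1.33 to 18.6 ± 8.29 FPKM, SD, n = 3, log2 fold change 1.72 ± 0.36, limma adjusted p = 0.0336), which also belongs to the intestine markers. The second smallest p in that list was that of hizr-1 (listed as nhr-33), the nuclear receptor that senses high zinc and turns on mtl-1 and ttm-1, with 1.69 ± 0.708 and 5.11 ± 1.77 FPKM (limma adjusted p = 0.0600). Of 7 genes of the toxin and MAP kinase list, 3 rose: ttm-2 by 1.65 ± 0.23, the JNK-like kinase gene kgb-1 by 1.42 ± 0.30 and ttm-5 by 1.39 ± 0.33 on the log2 scale (limma adjusted p = 0.0139, 0.0341 and 0.0463). Of these 3 calls, 1 was left with the authors' constants or without control replicate 1 or 2, and 0 without control replicate 3, prx-5-labelled replicate 2 or prx-5-labelled replicate 3. The call of elt-2 was lost in the same 3 fits (limma adjusted p = 0.121, 0.108 and 0.114) as well as without control replicate 1 (0.0800). Under the authors' constants its adjusted p by limma was 0.0608. Over all loci, 714 passed with the authors' constants and 306 and 866 without control replicates 1 and 2. Without control replicate 3 and prx-5-labelled replicates 2 and 3 there were 78, 155 and 137.

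Markers of other tissues were read in the same way. None of 10 germline, 7 neuron, 6 pharynx, 6 body wall muscle or 4 sperm markers passed the limma test, and 2 of 7 epidermis markers fell, col-19 and grd-3. The epidermis list had a median log2 fold change of 0.39, with rol-6 at 2.28 and dpy-13 at 1.86, neither called by limma and both called higher in the authors' deposited table. At an unadjusted p under 0.05 the germline, neuron, pharynx, muscle, sperm and epidermis lists held 0, 1, 1, 3, 1 and 2 genes, and the authors' deposited table called 2, 1, 1, 3, 1 and 4. Those of the germline, muscle and sperm lists were lower in the prx-5-labelled libraries, and those of the neuron and pharynx lists were higher. The median log2 fold changes were -0.23 for germline, -0.63 for muscle, -0.82 for sperm, 0.49 for neuron and 0.27 for pharynx markers. The loci used for unc-89 (muscle) and spe-9 (sperm) covered only 0.0% and 10.1% of their genes. With a coverage minimum of 50%, 5 muscle and 3 sperm markers were tested, with medians of -0.58 and -1.05. In that fit 0 of the muscle and 1 of the sperm markers were called lower, against 1238 calls over all loci. The pharynx markers, of interest because mtl-1 is known to be expressed there, had summed levels from 192 to 308 FPKM in the controls and from 202 to 452 FPKM in the other group. Within the controls their sum was highest in replicate 2, where mtl-1 was highest too, and within the prx-5-labelled group it was lowest in replicate 1, where mtl-1 was highest. Their part in the values of mtl-1 was not tested.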

How the data were processed

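RNA-seq libraries of 6 whole-worm samples, 3 per group, were analysed from 7 deposited tables of 15796 loci. The deposited library tables hold FPKM, per the file headers. The authors' comparison table adds group FPKM, log2 fold changes, p-values, q-values and a test score. The submitters' processing notes name CASAVA, Bowtie, Cufflinks and Cuffdiff without versions, and the genome build is not given in the sources used here. Coordinates were moved to counting from 1 and compared with the WBcel235 annotation (Ensembl release 115).

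Loci were joined by position. The 913 loci with labels that differed between tables, and 97 whose library values missed the authors' group value by over 2%, were left out, which left 14786, and 33 values with a failed status were set to missing. FPKM were used as deposited, as log2(FPKM + 1), where the mean over libraries reached 1 FPKM. The 2 groups entered limma 3.58.1 (R 4.3.3; moderated linear model with a variance trend, two-sided, Benjamini-Hochberg over 13347 loci, called at an adjusted p under 0.05). The fit was tested on simulated data. Ratios within a library were compared by exact permutation. The series text calls the samples biological replicates without naming separate cultures, so p-values measure the spread between these samples, which may be technical.

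Relative depth came from loci under 1.5 FPKM, whose ratios between libraries repeat exactly. Fragment numbers are the smallest whole numbers within 0.02 of all 6 depth-corrected values, found for 6 of the 8 genes. The true numbers of a gene may be a whole multiple of them. Absolute depth is unknown.

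The 8 genes, lists and tests were chosen with earlier results of these data known. Named in the text are the 8 genes, all called genes of the 8 lists or up to 2 of the smallest p, and the 3 named loci with the highest r to each of the 8. The genes hrg-4, hrg-9, fpn-1.1, zipt-13, hizr-1, col-19, grd-3 and the ratios to cdr-6 and cdr-7 were added after their values were seen. Alternatives were pseudocounts, filters, scalings, a fit without trend, a replicate block, subtraction of the intestine marker mean, gene coverage, and leaving out each library.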

Additional observations from a re-analysis of the deposited data

How the results depend on the processing

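The direction of ftn-2, cdr-1, cdr-2, cdr-4 and ttm-1 was the same in all fits with other pseudocounts, filters, scalings, no trend, the replicate block or 1 library left out in which they were tested. Subtraction of the intestine marker mean turned signs, to -1.14 for mtl-1, -0.80 for mtl-2, -1.1 for ftn-1, -0.13 for ftn-2, -0.35 for cdr-1 and -0.97 for ttm-1, and it shifted all loci by a median of -1.67. Of the 8 genes, 5 were called higher, against 2 with median-ratio scaling, 3 with quantile normalization, 2 with the authors' constants and 0 with the marker mean subtracted, where 1 was called lower. Leaving out 1 library gave between 0 and 4 higher calls. Of the other metal genes, 12 were called higher, against 7 with each of these 3 scalings and 3 with the marker mean subtracted, and between 0 and 17 with 1 library left out. Lower calls among them went from 0 to 1 with a mean of at least 5 FPKM, quantile normalization, the authors' constants or a coverage minimum of 50%, and to 41 with the marker mean subtracted. Over all loci the 1160 calls became 698, 771, 714 and 11327 in the same order of settings, and between 78 and 1848 with 1 library left out. With a mean of at least 5 FPKM cdr-1 and ftn-1 were not tested, and ftn-1 was not tested with the coverage minimum of 50%. The replicate block moved the calls over all loci to 1253 and kept 5 of the 8 genes, with mtl-2 called (adjusted p = 0.0482) in place of ttm-1 (0.0669). Deviations of same-numbered libraries correlated at 0.29, 0.232 and -0.117, and not every library correlated best with its own number, so the numbers were not taken to pair the libraries. The log2 fold change of mtl-1 lay between -0.36 and 1.06 with 1 library left out, and the mtl-1 to mtl-2 ratio difference lay between -0.80 and 0.16, positive without control replicate 2 (0.16) or prx-5-labelled replicate 3 (0.07). The ftn-1 to ftn-2 ratio difference lay between -1.6 and -0.53. The causes were not tested. The lowest fragment numbers behind cdr-1, ftn-1 and mtl-1 were 7, 10 and 24 in a library.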
